A study of Homo sapiens with 12 samples.

Results

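The 10 genes described here are markers and regulators of epithelial and luminal breast cells, namely CDH1, EPCAM, ESRP1, GRHL2, ELF3, ESR1, PGR, GATA3, FOXA1 and ERBB2. Each was represented by the H3K27ac peaks that touched a window of 5 kb on either side of its start site in hg19. The genes form a fixed list of names, which was chosen with earlier results of these data known. Of 659281 peaks on chromosomes 1 to 22 and X in the 9 peak lists, 69 touched these 10 windows. The start sites, given to the nearest kb, were CDH1 at 68771 kb of chromosome 16, EPCAM at 47596 kb of chromosome 2, ESRP1 and GRHL2 at 95653 and 102505 kb of chromosome 8, and ELF3 at 201980 kb of chromosome 1. The others were ESR1 at 152129 kb of chromosome 6, PGR at 101000 kb of chromosome 11, GATA3 at 8097 kb of chromosome 10, FOXA1 at 38064 kb of chromosome 14 and ERBB2 at 37856 kb of chromosome 17. PGR and FOXA1 lie on the minus strand, and distances below are negative upstream of a start site whatever the strand.

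H3K27ac, acetylation of lysine 27 of histone H3, marks active promoters and enhancers. It was mapped by native ChIP-seq, on unfixed chromatin, in MDA-MB231 cells, a breast cancer line of mesenchymal character that lacks the estrogen and progesterone receptors. The cells of all 9 libraries were infected with lentivirus and harvested 96 hours later, with 250000 to 500000 cells per ChIP. The virus carried EV-control in the Control group, an shRNA against CDK19 in the CDK19KD group or an shRNA against CDK8 in the CDK8KD group, with 3 libraries in each. CDK8 and CDK19 are the alternative kinases of the Mediator kinase module, which sits between transcription factors and RNA polymerase II, and the comparisons ask how acetylation differs after loss of either kinase. The labels do not say how many shRNA sequences were used, what promoter drove them or whether libraries of a group came from separate cultures, so p-values below measure the spread between libraries, which may be technical. The level of CDK8 or CDK19 was not analysed here.

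Epithelial identity rests on adhesion molecules at cell contacts and on transcription factors that hold their genes open. Luminal breast cells add a hormone programme in which FOXA1 and GATA3 prepare chromatin for the estrogen receptor, the product of ESR1, and PGR is a classical target of that receptor. During the epithelial to mesenchymal transition, repressors such as ZEB1 and SNAI1 bind E-boxes of the sequence CACCTG and silence CDH1 and its partners.

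Promoter sequences are shown for one gene whose window held a peak in all 9 libraries (ELF3), one that held weak peaks in some (FOXA1) and one that held none (PGR). They come from RefSeq in GRCh38.p14, a build other than that of the peaks, run 5′ to 3′ on the gene's own strand from 250 bases before to 50 bases after the start, and are in lower case. Capitals mark matches, on either strand, to TATAAA (the TATA box), CACCTG (the E-box named above) or TGTTTAC (a forkhead motif). The ELF3 promoter is chr1:202010337-202010636 on the plus strand, that of FOXA1 is chr14:37595200-37595499 on the minus strand and that of PGR is chr11:101129764-101130063 on the minus strand.
ELF3: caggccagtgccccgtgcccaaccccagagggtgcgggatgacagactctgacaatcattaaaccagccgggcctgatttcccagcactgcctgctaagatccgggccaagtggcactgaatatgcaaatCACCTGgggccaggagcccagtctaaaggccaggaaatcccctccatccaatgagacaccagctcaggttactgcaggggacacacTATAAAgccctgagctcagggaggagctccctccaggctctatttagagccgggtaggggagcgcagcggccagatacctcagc
FOXA1: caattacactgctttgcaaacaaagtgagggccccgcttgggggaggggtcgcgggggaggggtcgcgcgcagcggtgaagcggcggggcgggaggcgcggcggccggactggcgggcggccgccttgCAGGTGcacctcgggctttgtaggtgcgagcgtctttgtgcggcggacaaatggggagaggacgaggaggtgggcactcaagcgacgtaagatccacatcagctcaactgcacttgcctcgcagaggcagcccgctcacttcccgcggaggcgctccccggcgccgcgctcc
PGR: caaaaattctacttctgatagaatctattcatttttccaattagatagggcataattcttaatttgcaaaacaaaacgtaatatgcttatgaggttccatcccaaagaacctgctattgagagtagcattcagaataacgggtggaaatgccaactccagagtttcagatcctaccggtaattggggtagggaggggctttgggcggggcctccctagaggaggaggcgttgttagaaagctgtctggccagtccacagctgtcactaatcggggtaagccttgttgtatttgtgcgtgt

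The ELF3 promoter held a TATAAA that begins 34 bases before the start and a CACCTG that begins 120 bases before it. The FOXA1 promoter held the reverse form of the same E-box, CAGGTG, beginning 122 bases before the start, and the PGR promoter held none of the 3 motifs. Among 35116 RefSeq promoters of 300 bases, 11.5% held TATAAA, 20.6% held CACCTG and 3.42% held TGTTTAC on either strand, so these matches describe the sequences and locate no bound factor. The FOXA1 promoter had 34 CpG dinucleotides and 69.3% G+C, against a median of 14 CpG and 58.7% over all promoters. The ELF3 and PGR promoters had 7 CpG each, with 59.0% and 44.3% G+C, so the acetylated ELF3 promoter and the PGR promoter without a peak were alike in CpG number.

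The 10 genes fell into 3 sets by the presence of peaks. EPCAM, GRHL2, ELF3 and ERBB2 held a peak in all 9 libraries. CDH1 and GATA3 held one in 6 libraries, FOXA1 in 3 and ESRP1 in 2, while ESR1 and PGR held none in any library. For comparison, 47.5% of the 112316 windows of 10 kb that any library touched were held by all 9. The number of genes held was 5 in each Control library, 7, 7 and 6 in CDK19KD and 5, 7 and 6 in CDK8KD. Peaks within their windows numbered 5 in each Control library, 9, 8 and 10 in CDK19KD and 7, 11 and 9 in CDK8KD. Of these peaks, CDH1 had 0 in each Control library, 2, 2 and 3 in CDK19KD and 2, 3 and 3 in CDK8KD. CDH1 thus supplied part of the difference, and neither number was set against other windows.

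**Figure D1:**
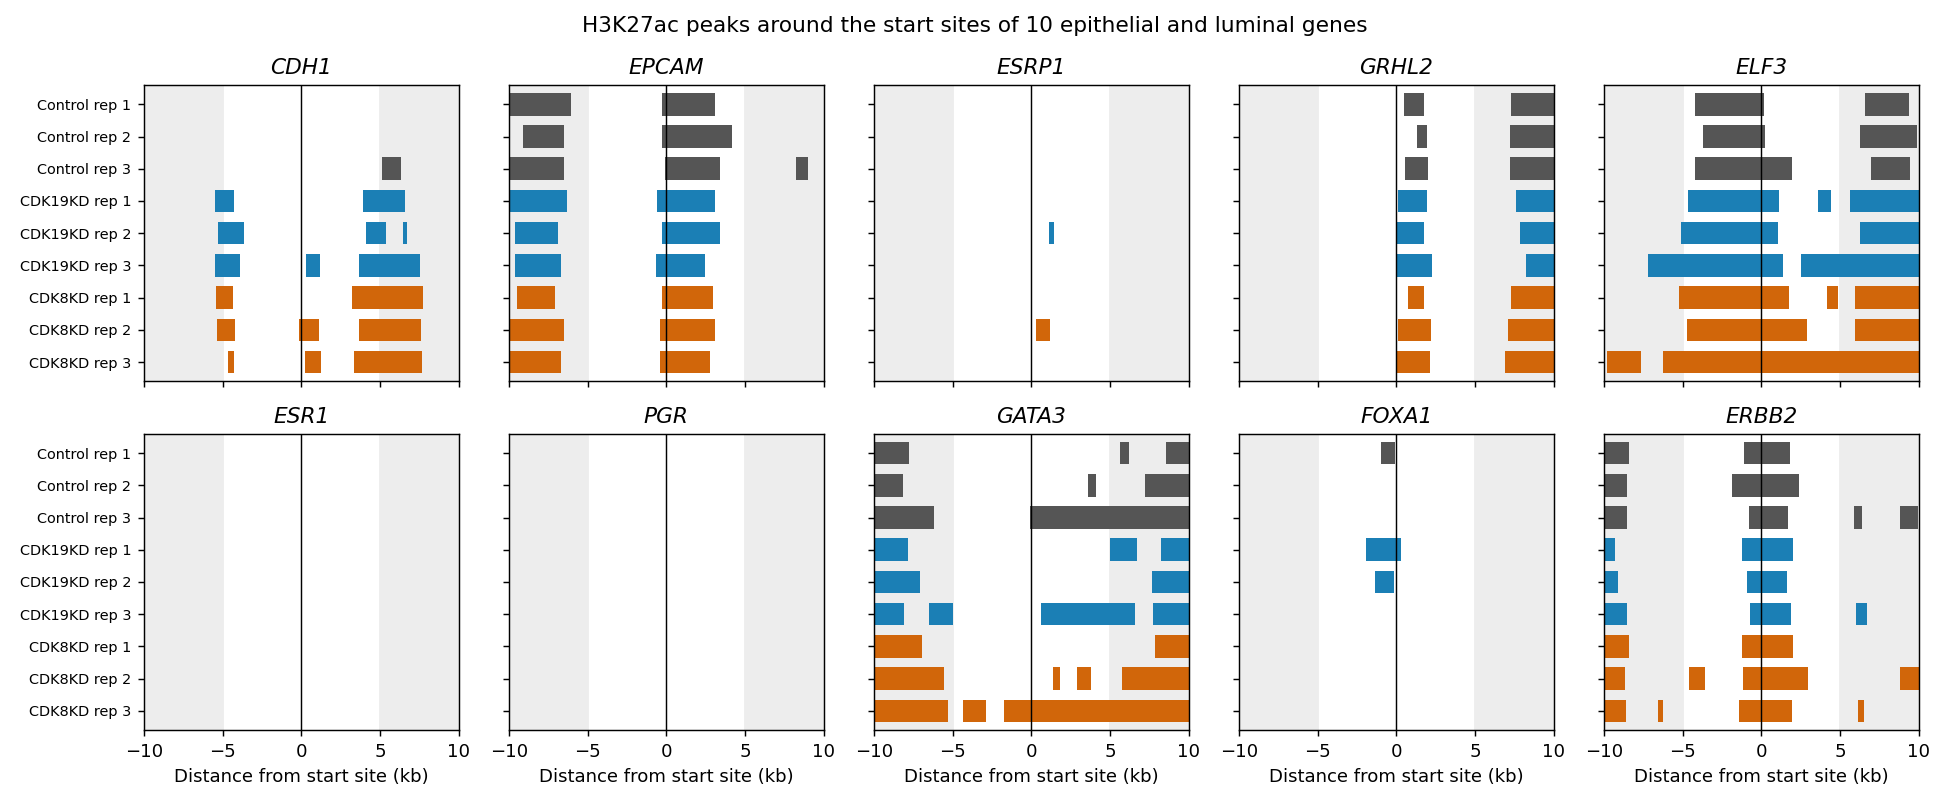
Peaks of the 9 libraries (rows) at each of the 10 genes. The horizontal axis is the distance from the start site in kb, positive downstream, each bar is a deposited peak, and grey shading lies beyond the 5 kb limit. CDH1 has bars within the limit in the 6 knockdown libraries and in none of the 3 Control libraries, and ESR1 and PGR have none.

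Levels are given as the covered share, the percentage of a gene's 10 kb window that lies under peaks. Averaged over 9 libraries, ELF3 had 67.8%, EPCAM 35.3%, ERBB2 33.0%, GATA3 21.8%, CDH1 18.2%, GRHL2 16.0%, FOXA1 4.77% and ESRP1 1.32%, with ESR1 and PGR at 0. EPCAM and ERBB2 do not differ beyond their spread (31.06% to 44.36% and 24.8% to 51.24%), and GATA3, from 0 to 81.68%, spans the levels of all its neighbours in this order. Groups were compared by the difference of covered share in limma, fitted over the 78095 windows whose mean share reached 5%, with Benjamini-Hochberg adjustment over all of them and a call at an adjusted p under 0.05. ESR1, PGR, ESRP1 and FOXA1 lay below that minimum and were not tested. This fit did not pair libraries by replicate number, although same-numbered libraries varied together (correlations of 0.138 to 0.611 after group means were removed). Its SE, intervals and p-values leave that pairing out, and values with the replicate number as a block are given where named.

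**Figure D2:**
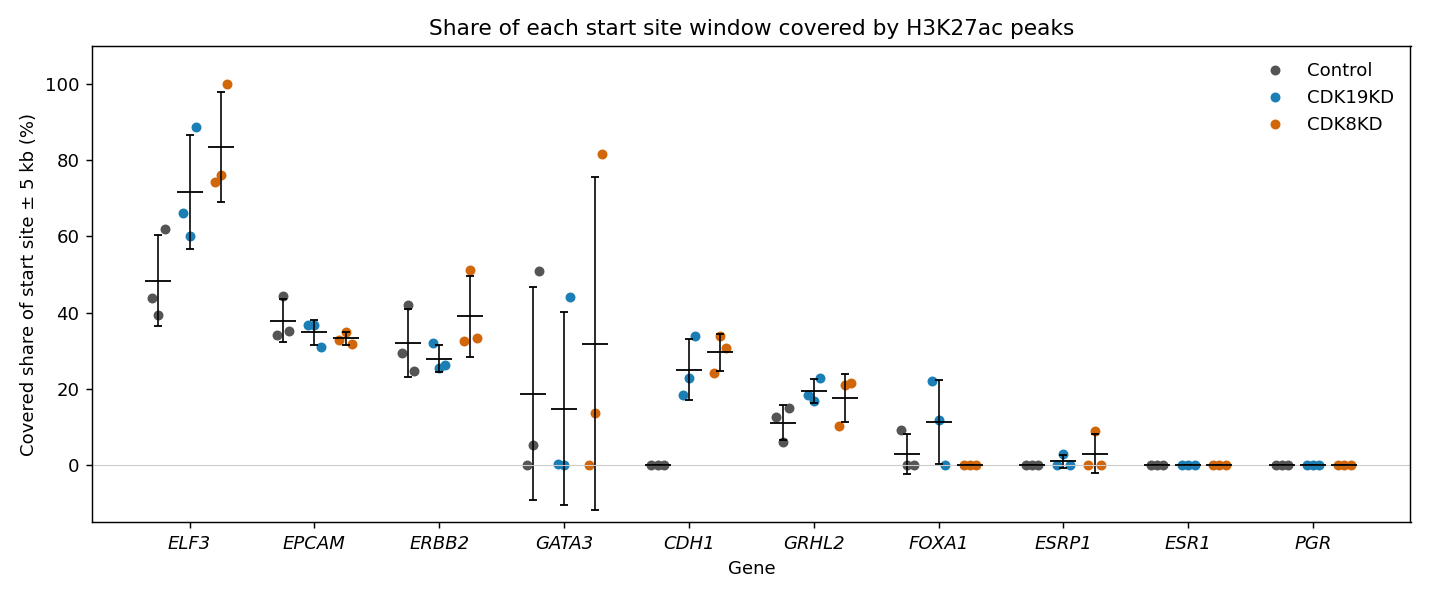
Covered share (%) of each gene's window in each library, by group. Points are libraries, horizontal lines are means and whiskers are 1 SD over 3 libraries (whiskers may run below 0, where no value can lie). CDH1 is at 0 in all 3 Control libraries and between 18.38% and 33.84% in the 6 knockdown libraries, and GATA3 is high in the third replicate of every group.

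The peak lists themselves differed between libraries. Control lists held 65579 to 87530 peaks, CDK19KD lists 65898 to 74654 and CDK8KD lists 62669 to 74761. The share of peaks with a −log10 q of at least 5 ran from 17.1% in Control replicate 2 to 43.9% in CDK19KD replicate 3. Read depth is unknown, so a missing peak cannot be told from one too weak to be called.

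Among the adhesion genes, CDH1, which encodes E-cadherin, the calcium-dependent adhesion molecule of adherens junctions, had acetylation peaks after either knockdown and none in Control. Its covered share was 0 in all 3 Control libraries, 18.38%, 22.86% and 33.84% in CDK19KD, and 24.23%, 33.81% and 30.78% in CDK8KD. Every knockdown library lay above every Control library. Of 112357 windows, 0.119% held a peak in all 6 knockdown libraries and no Control library, 0.650% in all 3 of CDK19KD and no Control, and 0.814% in all 3 of CDK8KD and no Control. Control replicates 2 and 3 had more peaks in all than any knockdown library, while Control replicate 1 (65579) exceeded only CDK8KD replicate 1 (62669). The share of peaks with a −log10 q of at least 5 was 41.3%, 17.1% and 26.1% in Control replicates 1, 2 and 3. It ran from 19.9% to 43.9% in the knockdown libraries. Whether the lists differ in sensitivity was not tested.

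The CDH1 peaks lay to the sides of the start site. All 6 knockdown libraries had a peak upstream, for instance chr16:68765502-68766746 (hg19) in CDK19KD replicate 1, from −5.498 to −4.254 kb. All 6 also had one downstream, for instance chr16:68774329-68778683 in CDK8KD replicate 3, from 3.329 to 7.683 kb after it. A further peak near the start appeared in CDK19KD replicate 3 and in CDK8KD replicates 2 and 3, and only that of CDK8KD replicate 2 (chr16:68770883-68772130) covered the start site. These peaks were of middling rank. The strongest of each library had a −log10 p of 2.76 to 8.10 and stood at percentiles 28.5 to 72.8 of its own list. Only that of CDK8KD replicate 3 was among the 20000 strongest peaks of its list. The absence in Control depends on the 5 kb limit, since Control replicate 3 had a weak peak (−log10 p of 2.74) from 5.154 to 6.356 kb downstream, within the span of the knockdown peaks.

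In limma the CDH1 share rose by 29.6 percentage points in CDK8KD over Control (SE 4.52, 95% interval 19.1 to 40.1, adjusted p = 0.0420). This was the one call among the 6 tested genes, in a comparison that called 0.631% of windows higher and 0.0858% lower. With the replicate number as a block the call was lost (adjusted p = 0.0542). It was also lost when any library other than Control replicate 1 was left out (adjusted p up to 0.137 over the 9 omissions). CDH1 passed the 5% minimum only through the knockdown libraries, and with no minimum the adjusted p was 0.0669. For CDK19KD over Control the difference was 25.03 points (95% interval 14.5 to 35.5), which did not pass (adjusted p = 0.144, with the block 0.152). That comparison called 0.0551% of windows higher and 0.0230% lower. Both comparisons use the same 3 Control libraries. At CDH1 these had an SD of 0, at the floor of the measure, against 7.95 points in CDK19KD and 4.90 in CDK8KD. The SE, intervals and p-values rest on a pooled spread that includes this 0 and may understate the spread between libraries. Between the knockdowns the difference was −4.58 points, CDK19KD minus CDK8KD (95% interval −15.1 to 5.92, adjusted p = 0.737), in a comparison that called 0.224% of windows higher and 0.780% lower.

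The 100 kb around the CDH1 start, which includes its 10 kb window, was also covered more widely in the knockdown libraries. Within 50 kb of the start on either side, Control libraries had 2, 1 and 4 peaks, CDK19KD libraries 6, 6 and 8, and CDK8KD libraries 8, 8 and 6. Peaks that did not touch the 10 kb window numbered 2, 1 and 4 in Control, 4, 4 and 5 in CDK19KD, and 6, 5 and 3 in CDK8KD. The groups overlapped in this number. Peaks covered 2.005% to 7.37% of the whole 100 kb in Control, 8.84% to 16.6% in CDK19KD and 18.1% to 21.1% in CDK8KD. Both knockdowns thus lay above Control, with the 10 kb window included, and the share outside that window was not computed. Among 13212 windows of 100 kb, 6.06% were higher in every CDK19KD library than in every Control library, 15.3% were so for CDK8KD and 3.69% for all 6 knockdown libraries, so that non-overlap is common at this scale. A peak further upstream was present in Control too, for example from −30.424 to −27.923 kb in Control replicate 3. CDH3, which encodes P-cadherin, is the protein-coding neighbour in RefSeq, and no peak was assigned to either gene.

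EPCAM, an adhesion molecule of epithelial cells used as a carcinoma marker, held 1 peak over its start site in all 9 libraries. Its covered share was 34.11%, 44.36% and 35.26% in Control, 36.68%, 36.78% and 31.06% in CDK19KD, and 32.93%, 35.0% and 31.76% in CDK8KD. The groups overlapped and the peak was of steady size, 3106 to 4436 bp wide, with a fold enrichment of 3.75 to 5.11 as the authors' caller gave it. In CDK8KD replicate 2 it was chr2:47595580-47599079. It stood at percentiles 69.8 to 90.3 of its list and was among the 20000 strongest peaks of every library. Differences from Control were −3.07 points in CDK19KD (95% interval −13.1 to 7.01) and −4.68 in CDK8KD (95% interval −14.8 to 5.40), with limma adjusted p of 0.832 and 0.660.

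ESRP1, a splicing regulator that imposes epithelial isoforms, had almost no called peaks near its start. A 300 bp peak in CDK19KD replicate 2 and an 887 bp peak in CDK8KD replicate 2, at percentiles 19.6 and 29.8 of their lists, were the only ones. In CDK19KD replicate 3 the nearest peak was 76.799 kb downstream.

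The epithelial transcription factors GRHL2 and ELF3 both held peaks in every library. GRHL2, a grainyhead factor that maintains epithelial enhancers, had a small peak on the downstream side, 594 to 2285 bp wide. Its covered share was 12.53%, 5.94% and 14.87% in Control, 18.35%, 16.78% and 22.85% in CDK19KD, and 10.33%, 20.94% and 21.47% in CDK8KD. The CDK19KD libraries all lay above all Control libraries, as in 6.53% of windows, while CDK8KD overlapped with Control. The differences of 8.21 points in CDK19KD (95% interval −1.51 to 17.9, limma adjusted p = 0.559) and 6.47 points in CDK8KD (95% interval −3.25 to 16.2, limma adjusted p = 0.516) did not pass.

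ELF3, an ETS factor of differentiated epithelia, had the highest mean covered share of the 10 genes, though by the percentile of the strongest peak ERBB2 and EPCAM stood higher (means of 82.4 and 79.1 against 71.7). A peak lay over its start in all 9 libraries and, except in CDK8KD replicate 3, extended mostly upstream, from chr1:201975789-201980179 in Control replicate 1 to chr1:201974777-201981739 in CDK8KD replicate 1. The covered share was 43.91%, 39.34% and 61.91% in Control, 66.13%, 60.18% and 88.63% in CDK19KD, and 74.37%, 76.09% and 100% in CDK8KD. The 3 CDK8KD libraries were all above the 3 Control libraries, as in 12.8% of windows, whereas CDK19KD overlapped with Control through its second replicate. Within each of the 3 replicate numbers CDK19KD was above Control, as in 14.4% of windows. Only CDH1 among the tested genes had all 6 knockdown libraries above all 3 Control libraries, a pattern seen in 2.71% of windows.

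The ELF3 difference from Control was 35.1 points in CDK8KD (SE 10.4, 95% interval 11.02 to 59.2), which did not pass in limma (adjusted p = 0.186). With the replicate number as a block it did (adjusted p = 0.0452), in a fit that called 0.403% of windows higher. In CDK19KD the difference was 23.3 points (95% interval −0.817 to 47.3, limma adjusted p = 0.514, with the block 0.138, where 0.00128% of windows were called higher). CDK19KD minus CDK8KD was −11.8 points (95% interval −35.9 to 12.2, limma adjusted p = 0.691).

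Lists of equal length gave a larger difference at ELF3. Its peak ranked 35030, 39404 and 22950 in the Control lists, and 9778 to 18256 in the knockdown lists. When each list was reduced to its 20000 strongest peaks, ELF3 therefore held a peak in all 6 knockdown libraries and in no Control library, a pattern of 0.147% of the windows touched by such peaks. ELF3 thus passed the 5% minimum there only through the knockdown libraries, and its Control values of 0 come from the rank limit, which the peak of Control replicate 3 missed narrowly. The difference from Control was then 81.2 points in CDK8KD (limma adjusted p = 0.0156, with 1.0% of windows called higher) and 68.8 points in CDK19KD (limma adjusted p = 0.0429, with 0.476% called higher). Over all alternatives the adjusted p ran from 0.0156 to 0.424 for CDK8KD and from 0.0429 to 0.887 for CDK19KD.

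The peaks around ELF3 included wider ones in the knockdown libraries. Of the peaks that touched the 50 kb on either side of the start, the widest had 5439, 6057 and 10871 bp in Control, 23073, 21801 and 25738 bp in CDK19KD, and 51130, 13469 and 63240 bp in CDK8KD. All 6 knockdown libraries were above the 3 Control libraries in this width, as in 2.56% of windows of 100 kb, and CDK8KD replicate 2 was closest to Control. In CDK8KD replicate 3 the widest peak was the one over the start, which ran without a break to 57.0 kb downstream. Shorter downstream peaks were present in knockdown libraries too, such as one of 848 bp in CDK19KD replicate 1. Within 50 kb of the start, the 10 kb window included, peaks covered 32.7% to 42.1% in Control. They covered 45.6% to 56.1% in CDK19KD and 49.3% to 67.2% in CDK8KD. Both knockdowns lay above Control, as in 3.69% of windows of 100 kb. RefSeq places the gene RNPEP and the antisense gene ELF3-AS1 within 5 kb of the ELF3 gene, and other genes in the 50 kb on either side were not listed. H3K27ac carries no strand, so signals of ELF3 and ELF3-AS1 cannot be told apart, and no peak was assigned to a gene.

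**Figure D3:**
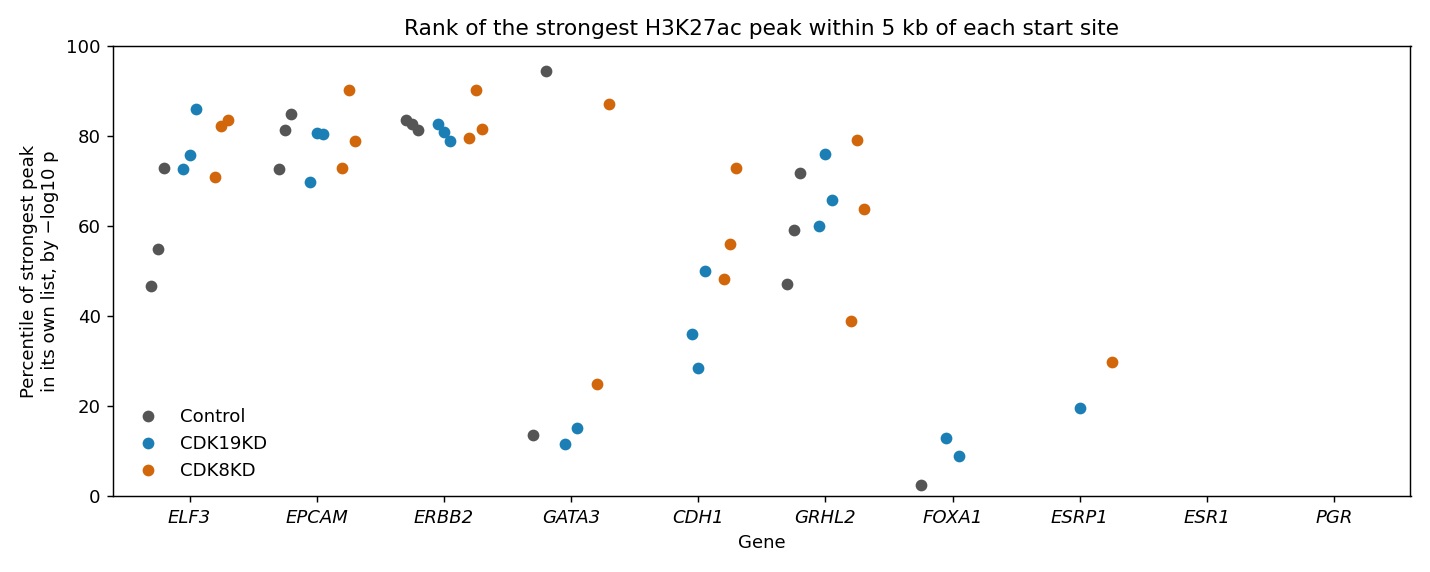
Percentile of the strongest peak within 5 kb of each start site in its own list, ranked by the deposited −log10 p, where higher is stronger. Points are libraries, coloured by group, and a library without a peak has no point. EPCAM and ERBB2 stay between 69.8 and 90.3, FOXA1 stays at or below 12.97, and lists differ in length, so a shift between groups is not a measured change.

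Among the luminal genes, the hormone receptors had no called peak at the start sites used here. ESR1, the estrogen receptor, had its nearest peak 42.4 to 43.1 kb upstream in 8 libraries, while in Control replicate 3 the nearest was 91.0 kb downstream. PGR, the progesterone receptor, had no peak within 115 kb in any library, and its nearest lay 115 to 199 kb away. Their covered share was 0 in all 9 libraries also within 10 kb of the start.

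FOXA1, the forkhead pioneer factor of luminal cells, had only faint peaks. Its covered share was 9.1% in Control replicate 1, 22.01% and 11.85% in CDK19KD replicates 1 and 2, and 0 in the other 6 libraries, including all of CDK8KD. The 3 peaks had a −log10 p of 2.20 to 2.49 and stood at percentiles 2.44 to 12.97, among the weakest of their lists. None was among the 20000 strongest.

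GATA3, the zinc finger factor of luminal differentiation, differed more between libraries than between groups. Its covered share was 0, 5.31% and 50.96% in Control, 0.31%, 0 and 44.02% in CDK19KD, and 0, 13.79% and 81.68% in CDK8KD. The third replicate was the highest of every group. In Control replicate 3 (chr10:8096905-8121286) and CDK8KD replicate 3 (chr10:8095240-8123009) a peak of 24382 and 27770 bp covered the start, at percentiles 94.5 and 87.1. Elsewhere the wide peak began further downstream, for example 8.580 kb after the start in Control replicate 1, where it was 16322 bp wide. The wide peak was thus present in all groups, with its edge called at different places. In CDK19KD replicate 3 it began at 7.733 kb, and the 44.02% came mostly from a separate weak peak, from 0.611 to 6.558 kb (percentile 15.1). Control replicate 2 and CDK8KD replicate 2 also had only small separate peaks in the window. The differences were −3.98 points for CDK19KD against Control, 13.1 for CDK8KD against Control and −17.0 for CDK19KD against CDK8KD (SE 24.2 each), and none passed in limma (adjusted p of 0.981, 0.853 and 0.841, and with the replicate block 0.813, 0.365 and 0.269).

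ERBB2, the receptor tyrosine kinase HER2, held a peak over its start in all 9 libraries, for instance chr17:37854802-37858922 in CDK8KD replicate 2. Its covered share was 29.37%, 41.97% and 24.8% in Control, 32.03%, 25.55% and 26.21% in CDK19KD, and 32.51%, 51.24% and 33.42% in CDK8KD. All CDK19KD libraries lay below all CDK8KD libraries, the closest by 32.03% to 32.51%, as in 15.4% of windows, and both overlapped with Control. The peak was 2480 to 4197 bp wide, at percentiles 79.0 to 90.2, and always among the 20000 strongest. Differences were −4.12 points for CDK19KD against Control (95% interval −19.7 to 11.5), 7.01 for CDK8KD against Control (95% interval −8.57 to 22.6) and −11.1 for CDK19KD against CDK8KD (95% interval −26.7 to 4.46), with limma adjusted p of 0.859, 0.671 and 0.521.

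**Figure D4:**
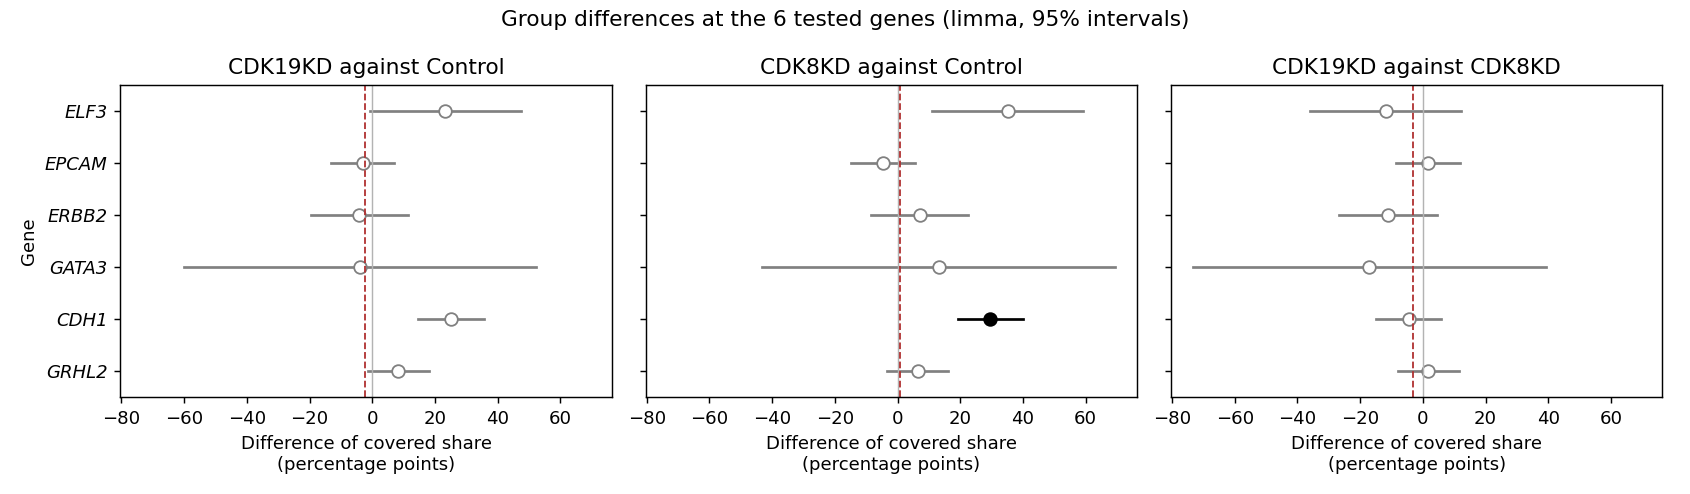
Difference of covered share in percentage points for the 6 tested genes (rows) in the 3 comparisons (panels), first group minus second. Points are limma estimates without the replicate block and lines are 95% intervals. The filled point passed an adjusted p of 0.05, and the dashed line is the median of all 78095 windows. The filled point is CDH1 in CDK8KD against Control, at 29.6 points.

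Across the 6 tested genes, CDK19KD exceeded Control at 3 and was below it at 3, with a median difference of 2.57 points against −2.26 over all windows. In CDK8KD 5 were higher and 1 lower than in Control, with a median of 10.0 against 0.883. Between CDK19KD and CDK8KD the median was −7.85 against −3.22, with 2 higher and 4 lower. No gene was called in the comparisons of CDK19KD with Control or with CDK8KD. At an unadjusted p under 0.05 there was 1 gene of 6 in CDK19KD against Control (9.92% of all windows), 2 in CDK8KD against Control (14.7%) and 0 in CDK19KD against CDK8KD (14.6%). CDH1 was counted in both comparisons with Control and passed the 5% minimum only through the knockdown libraries. Its higher share there was thus favoured by the filter, and the counts and medians above include it. ESR1, PGR, ESRP1 and FOXA1 were not tested and do not enter them.

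A list of 24 other epithelial and luminal genes, among them keratins and claudins, was covered more widely than the 10 genes. Of these, 21 held a peak in all 9 libraries and 2 in none, with a median covered share of 66.3% against 17.1% for the 10 genes and 15.6% for all touched windows. TFF3, a secreted trefoil peptide, was among the 2 at 0. Of the 24 genes 22 were tested and none was called in any comparison. Their median difference was 4.08 points for CDK19KD against Control (15 higher, 6 lower), 8.41 for CDK8KD against Control (19 higher, 2 lower) and −5.79 for CDK19KD against CDK8KD (6 higher, 15 lower). At an unadjusted p under 0.05 there were 1, 6 and 2 of the 22 genes in these comparisons, beside 9.92%, 14.7% and 14.6% of all windows.

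Mesenchymal markers set the reference for the identity of the line. Of 7 genes, 5 held a peak in all 9 libraries and the median covered share was 86.9%. CD44, a hyaluronan receptor, had 97.7% and CDH2, which encodes N-cadherin, had 6.68%. ZEB1, a repressor of CDH1, was covered by 78.1% to 100% in every library. None of the 7 was called, and their median differences from Control were −1.72 points in CDK19KD and 1.51 in CDK8KD. The housekeeping genes GAPDH and ACTB had 97.2% and 72.1%. Among genes of other tissues, ALB and HBB were at 0, and PTPRC, the leukocyte antigen CD45, held a peak in all 9 with a mean share of 39.6%. The part of other cells in that signal was not tested, and HBB and ALB, which define red cells and hepatocytes, were at 0.

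**Figure D5:**
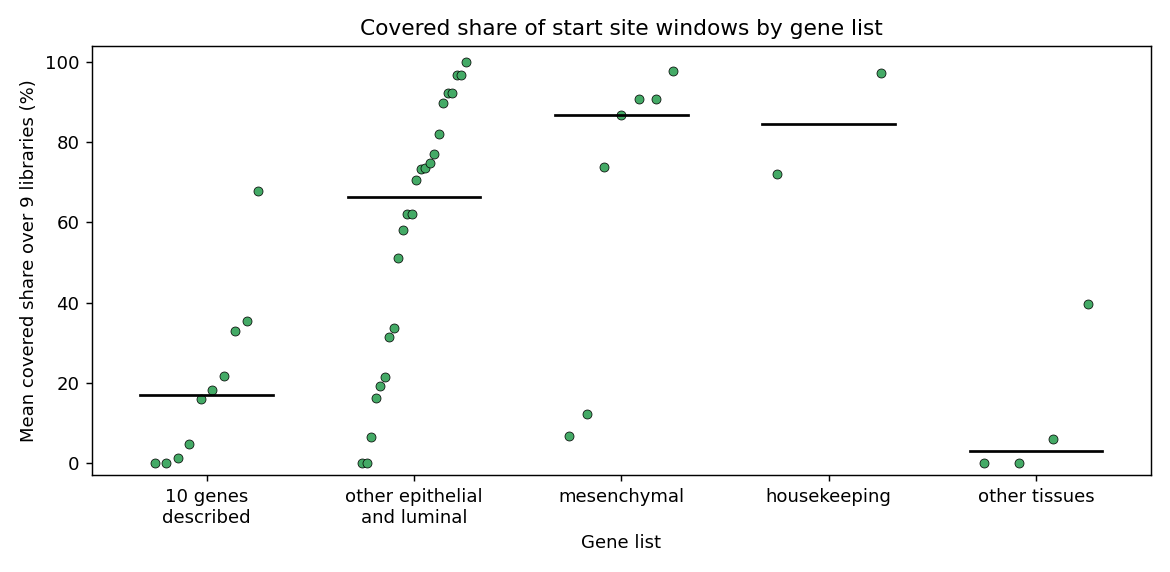
Mean covered share over 9 libraries (%) of each gene, by list. Points are genes and the line is the median of the list. The median is 17.1% for the 10 genes, 66.3% for the other epithelial and luminal genes and 86.9% for the mesenchymal genes.

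The gene of the other lists whose covered share was closest over the 9 libraries was TFF1 for ELF3, at a mean absolute difference of 6.23 points. For GRHL2 it was CLDN3, at 6.26 points, for EPCAM PTPRC, at 7.61 points, and for ERBB2 ERBB3, at 8.85 points.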

How the data were processed

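H3K27ac peak lists of 9 libraries were analysed, and the 3 Input samples were not analysed here. The authors deposited 1 list per library in the layout of broad peaks. MACS2, deepTools and the build hg19 are named in the submitters' processing notes, and their versions, the aligner, the peak threshold and the read depth are not given in the sources used here. Each deposited peak carries a fold enrichment (a linear ratio), the −log10 of a p-value and of a q-value, and a score from the authors' caller. The score was not used, and the others were used only inside a list, to rank or filter its peaks. Groups and replicate numbers were taken from the sample titles.

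Peaks on chromosomes 1 to 22 and X were intersected with windows of 5 kb each side of the start sites and with 10 kb tiles (Python 3.11.15, pandas 2.3.3, numpy 2.4.6), and the percent of each window under peaks, the covered share, was computed. A gene held a peak if at least 1 bp overlapped. Windows whose mean share reached 5% were fitted with limma 3.58.1 in R 4.3.3 (all 9 libraries, group means, eBayes with a trend), with Benjamini-Hochberg adjustment over all 78095 windows. The limma step was tested on simulated data. Intervals are 95% intervals of the fit.

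After group means were removed, covered shares of same-numbered libraries correlated at 0.138 to 0.611 in all 9 pairs. These correlations lay above the set limit of 0.1. The main fit still did not pair the libraries, and the replicate block, which does, was run as an alternative. Alternatives were windows of 2 and 10 kb, the 20000 strongest peaks, peaks whose −log10 q reached 5, scaling by covered length, no minimum share, the replicate block, peaks joined within 1000 bp, at least 50% of a window covered and omission of each library.

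All 10 genes are named. Of other lists, the gene of highest and of lowest mean share and any called gene are named, besides each closest gene, and the peaks given by coordinates, ZEB1 and the housekeeping and other-tissue genes were picked as examples after their values were seen. Some genes that this rule names are not reported here. The genes and lists were chosen with earlier results of these data known. Start sites of the other lists were written by hand to the nearest kb of hg19, because no annotation of that build was used here. Promoters of 6 of the 10 genes were matched in the RefSeq table.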

Additional observations from a re-analysis of the deposited data

How the results depend on the processing

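Of 356 values recomputed under alternatives, 297 concerned single genes. Of these 266 kept their direction and side of the threshold, 3 gained a call, 12 lost one (all of them CDH1 in CDK8KD against Control) and 16 changed sign. With a −log10 q of at least 5, and with the 20000 strongest peaks, CDH1 held a peak only in CDK8KD replicate 3 (16.72%). Its mean share was then below the 5% minimum and it was not tested. Under the other alternatives, CDH1 in CDK8KD against Control was called in 3 of 15 (limma adjusted p from 0.0392 with windows of 10 kb to 0.393 with windows of 2 kb). In that comparison the call with peaks joined within 1000 bp repeats the main fit. The number of genes called in that comparison was 0 with a −log10 q of at least 5, with windows of 2 kb, with scaling by covered length and with no minimum share, and 0 to 1 when single libraries were left out. With the replicate block it stayed 1, but the gene was ELF3 (adjusted p = 0.0452) and not CDH1 (0.0542), and with the 20000 strongest peaks it was also ELF3. The block changed no other call. With it the limma adjusted p for CDK19KD and CDK8KD against Control was 0.696 and 0.503 at EPCAM. It was 0.364 and 0.382 at GRHL2, and 0.733 and 0.506 at ERBB2. In CDK19KD against Control the number rose from 0 to 1 (ELF3) with the 20000 strongest peaks. Genes with a peak in all 9 libraries fell from 4 to 0 with a −log10 q of at least 5, to 2 with the 20000 strongest peaks and to 0 when 50% of the window had to be covered.

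All sign changes were in differences that passed no test. For CDK19KD against Control, EPCAM became 11.7 points with a −log10 q of at least 5, 6.99 with windows of 2 kb, 0.784 with scaling and 0.155 without Control replicate 2. ERBB2 became 9.87 with a −log10 q of at least 5 and 0.845 without Control replicate 2. GATA3 became 12.1 without Control replicate 3, 3.25 without CDK19KD replicate 1 and 3.41 without CDK19KD replicate 2. For CDK8KD against Control, EPCAM became 10.1 with a −log10 q of at least 5 and 3.90 with windows of 2 kb, and GATA3 −11.9 without CDK8KD replicate 3. For CDK19KD against CDK8KD, GRHL2 became −3.15 with windows of 10 kb, −0.015 without CDK19KD replicate 3 and −1.88 without CDK8KD replicate 1, and GATA3 7.88 without CDK8KD replicate 3. Over all omissions of a library, CDK19KD against Control ranged from −4.97 to 0.155 at EPCAM, from −7.74 to 0.845 at ERBB2 and from −18.6 to 12.1 at GATA3, CDK8KD against Control from −11.9 to 29.2 at GATA3, and CDK19KD against CDK8KD from −1.88 to 3.69 at GRHL2 and from −33.0 to 7.88 at GATA3. The cause of these changes was not tested. Joining peaks within 1000 bp changed no value. Unknown depth limits every absence of a peak, and 3 libraries a group limit the intervals.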

Other observations

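Away from their start sites, some of the genes without a promoter peak had recurrent peaks at a distance. The nearest peak to PGR lay 115.398 to 115.777 kb upstream in all 3 CDK19KD libraries and in CDK8KD replicates 1 and 2. In the 3 Control libraries the nearest peak was 136.766 to 196.7 kb downstream, so none had the upstream peak, and in CDK8KD replicate 3 it was 198.578 kb downstream. These upstream peaks were weak, with a −log10 p of 2.45 to 3.67, and 0.650% of windows of 10 kb held a peak in all 3 CDK19KD libraries and no Control library. ESRP1 had a strong peak as its nearest one in 5 libraries, 73.245 to 76.799 kb downstream of the start, with a −log10 p of 14.01 to 24.6 in the knockdown libraries and of 20.9 and 12.8 in Control replicates 1 and 2. The gene that either distant peak belongs to was not analysed here.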
